A study of Mus musculus with 7 samples.

Results

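Organic anion and cation transporters were examined in the retinal pigment epithelium (RPE) of aged mice that lack LC3b. The set holds the 58 protein-coding genes, of 52740 gene identifiers in the count table, whose symbols begin with Slco and a digit, Slc22a, Slc47a, Abcc and a digit, or Abcb1. The last pattern takes in Abcb10 and Abcb11 besides the P-glycoprotein genes Abcb1a and Abcb1b. The samples were 7 RNA-seq libraries of RPE sheets released with hyaluronidase and trypsin, each named for 1 mouse of 24 months. The 4 wild-type (WT) mice, F1, F2, F3 and M1, were C57BL6/J and comprised 3 females and 1 male. The 3 LC3b-/- mice, F1, F3 and M, carried the targeted allele Map1lc3b tm1Mrab on a B6;129P2 background and comprised 2 females and 1 male. No source used here states that the WT mice were littermates of the LC3b-/- mice, so the targeted allele and any difference in strain background cannot be told apart. The comparison asks which of these transporters differ in level between LC3b-/- and WT RPE.

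The RPE lies between the photoreceptors and the choroidal blood supply and forms the outer blood-retinal barrier, where many polar solutes and drugs cross between vessel and retina by way of carriers. The Slco genes encode organic anion transporting polypeptides, which take up thyroid hormones, bile salts, steroid conjugates, prostaglandins and many drugs without sodium. The Slc22a genes encode carriers for organic anions, organic cations and carnitine, and the Slc47a genes encode proton-coupled exporters of organic cations. The Abcc multidrug resistance proteins and the P-glycoproteins use ATP to pump conjugates and lipophilic drugs out of the cell.

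Library totals ran from 24495952 to 35616134 counts. Map1lc3b, the targeted gene on chromosome 8, had 2778 to 4444 counts in WT and 168 to 332 in LC3b-/-, a log2 fold change of -3.98 ± 0.15 (SE, adjusted p = 1.86e-04 by edgeR's quasi-likelihood test), so each library went with its label. The summed levels of some cell type markers differed between the groups. The summed level of 10 RPE markers was 30231 to 47580 CPM (counts scaled by the size of the library) in WT and 13330 to 28274 in LC3b-/-. Of the 10, 9 were lower, 6 of these at an unadjusted p under 0.05 (against 10.6% of all genes tested). All 10 endothelial markers were higher, with sums of 268.5 to 906.6 CPM against 1084 to 1168, and all 8 markers of ocular surface epithelium were higher, with sums of 118.6 to 1405 CPM against 2350 to 16403. These 3 sums did not overlap between the groups, and no single marker of any list passed the test. At an unadjusted p under 0.05, 2 of the 10 endothelial and 6 of the 8 ocular surface markers were higher (against 13.5% of all genes tested). Sums overlapped between the groups for the 10 photoreceptor markers, at 275.0 to 20735 CPM in WT and 95.8 to 7174 in LC3b-/-, and for the lists of pericytes, fibroblasts, macrophages and melanocytes. They overlapped as well for ciliary epithelium, of which 5 of 6 markers were found, and for skeletal muscle. No marker found was at 0 in all libraries.

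Of the 58 transporter genes, 35 had enough counts to be tested, 14 fell below the expression filter and 9 had no count in any library. A gene was called changed at an adjusted p under 0.05 over all 16990 genes tested and a fold change of at least 1.5. By that rule 1 of the 35 transporters was called (2.86%), Slco1b2, against 0.235% of all genes tested. An unadjusted p under 0.05 was reached by 3 transporters with higher levels in LC3b-/- (8.57%, against 13.5% of all genes) and by 4 with lower levels (11.4%, against 10.6%). The LC3b-/- values lay above all WT values for 2 transporters (5.71%, against 12.0% of all genes) and below all of them for 6 (17.1%, against 10.3%). These shares stand on both sides of the background and mark out no direction for the set. The median log2 fold change was 0.07 over the 35 transporters and 0.01 over all genes tested, with 20 transporters higher and 15 lower. DESeq2 called 4 of the 35, Slco1b2, Slc22a8, Slco1c1 and Slco2a1 (11.4%, against 9.48% of all genes it gave an adjusted p). In bulk RNA, fewer cells of a type and less RNA per cell cannot be told apart.

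**Figure D1:**
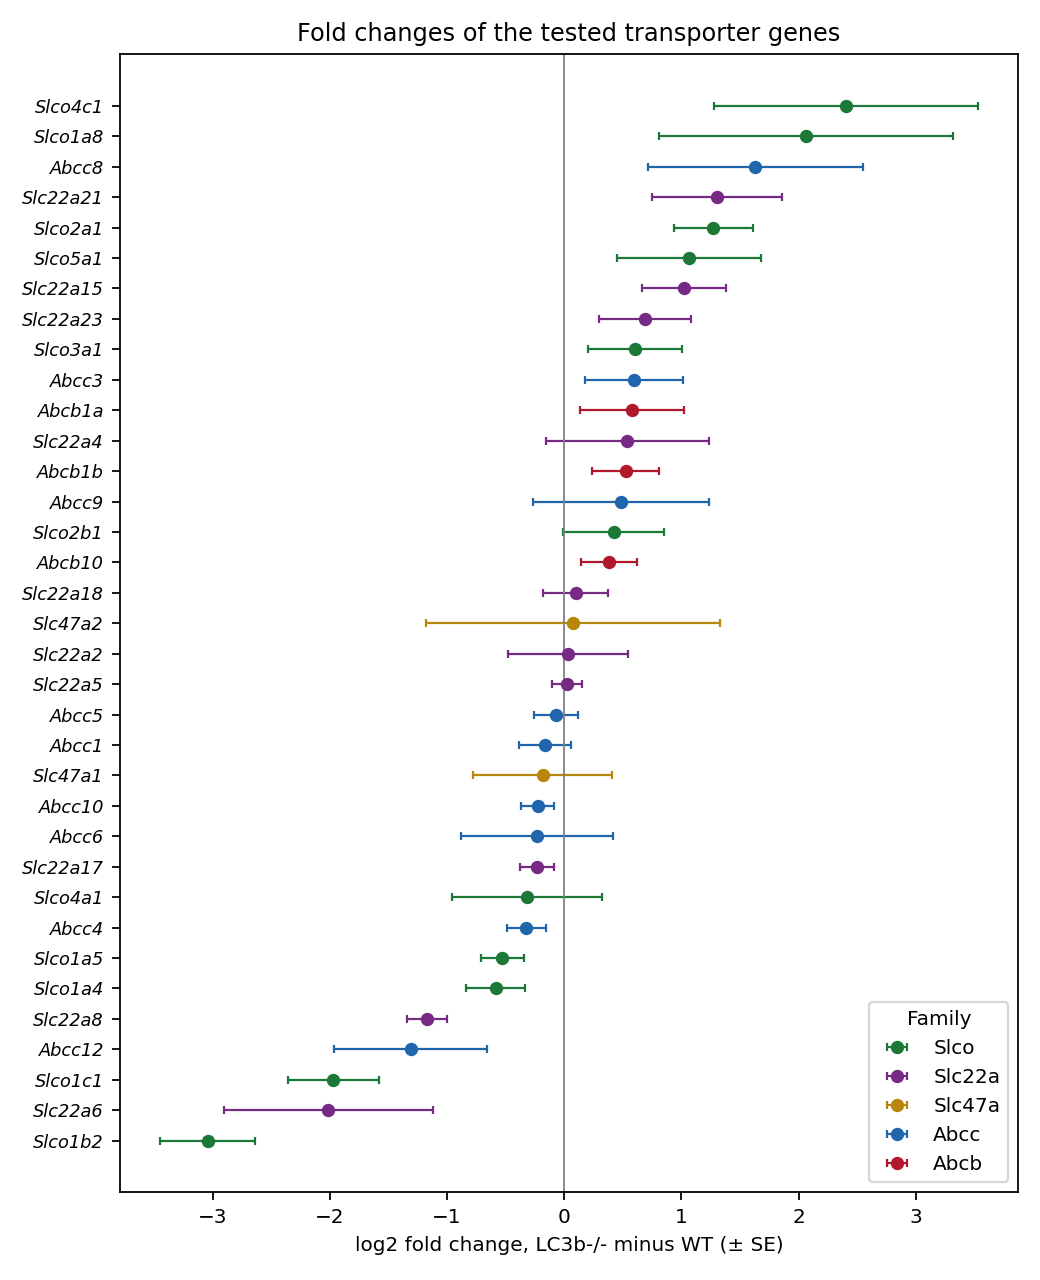
Log2 fold change (LC3b-/- minus WT, ± SE from edgeR) of the 35 tested transporter genes, ordered by value and coloured by family. Slco1b2 stands lowest at -3.04, Slco4c1 and Slco1a8 stand highest with wide errors, and most genes lie within 1 log2 unit of 0.

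Levels were compared per kb of exon, with the exons of all annotated transcripts of a gene merged. The merged length can exceed that of the transcripts present (21186 bases for Abcb1b), so the order depends on the annotation. On this scale the leading transporters of WT RPE were Slco1c1 with 47.1 ± 15.3 CPM per kb (SD, n = 4) and Slc22a17 with 46.8 ± 6.47. These 2 did not differ beyond their spread. Slc22a8 with 27.3 ± 3.84 and Slco1a4 with 27.0 ± 5.25 formed a second pair, again within their spread, followed by Slc22a18 with 16.6 ± 4.56, Abcc4 with 12.5 ± 2.03, Abcb1a with 8.08 ± 4.59 and Abcc1 with 7.37 ± 1.72 CPM per kb. In LC3b-/- RPE the order was led by Slc22a17 with 39.8 ± 2.40 CPM per kb (SD, n = 3), Slco1a4 with 18.0 ± 6.02 and Slc22a18 with 17.8 ± 6.13. Slc22a8 with 12.1 ± 1.97, Abcb1a with 12.1 ± 2.52 and Slco1c1 with 12.03 ± 5.96 came next and did not differ beyond their spread. By these means Slco1c1 held rank 1 in WT and rank 6 in LC3b-/-, both within near ties. Library by library, Slc22a17 led the transporters in WT F1, F2 and M1, and Slco1c1 led in WT F3 only. Slc22a17 also led in LC3b-/- F1, F3 and M.

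The Slco1 genes sit in 1 cluster on chromosome 6 (GRCm39, 141469705 to 142268788), among them the called gene. Slco1b2, the mouse relative of the hepatocyte uptake carriers for bile salts and bilirubin conjugates (ENSMUSG00000030236, chromosome 6, 141575179 to 141633546, + strand), was a weakly expressed gene with 45 to 88 counts in the WT libraries and 8 to 10 in the LC3b-/- libraries. Its level was 1.84, 1.86, 3.30 and 2.23 CPM in the WT mice F1 to F3 and M1, against 0.362, 0.251 and 0.236 CPM in LC3b-/- F1, F3 and M. No LC3b-/- library reached the lowest WT value. Slco1b2 fell by 3.04 on the log2 scale (SE 0.40, adjusted p = 0.048 by edgeR), that is 8.22-fold. The exact two-sided permutation test on log2 CPM gave p = 0.0286, the smallest that 35 splits of 4 against 3 allow. The call rested on a narrow margin. With edgeR the adjusted p rose to 0.123 with WT M1 left out, 0.125 with LC3b-/- F1 left out, 0.128 with WT F2, 0.138 with WT F3 and 0.204 with LC3b-/- F3, while the log2 fold change stayed between -3.25 and -2.83. It stayed called without LC3b-/- M and without WT F1.

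Slco1c1, the carrier of thyroxine at the blood-brain barrier (ENSMUSG00000030235, chromosome 6, 141469705 to 141516710, + strand), was far more abundant. It reached 268, 251, 496 and 371 CPM in the WT mice F1 to F3 and M1, against 64.1, 62.3 and 139 CPM in LC3b-/- F1, F3 and M. The groups did not overlap, and the male of the LC3b-/- group was the highest of its group. The log2 fold change was -1.97 ± 0.39 (SE), a 3.92-fold lower level, but with an adjusted p of 0.090 in edgeR the gene did not pass the test. Without LC3b-/- M its log2 fold change was -2.46 with an adjusted p of 0.030 in edgeR, while with any other library left out the adjusted p lay between 0.061 (WT F1) and 0.248 (LC3b-/- F1). DESeq2 gave an adjusted p of 6.78e-06 on all 7 libraries. The level of Slco1b2 amounted to 0.601% to 0.741% of that of Slco1c1 in WT. In LC3b-/- F1, F3 and M it amounted to 0.565%, 0.403% and 0.170%, below every WT library. These LC3b-/- shares rest on 9, 10 and 8 counts of Slco1b2. Their size, and the narrow gap between F1 and WT, are thus poorly known.

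Slco1a4, a carrier of bile salts and cardiac glycosides at brain vessels and liver (ENSMUSG00000030237, chromosome 6, 141751165 to 141802036, - strand), had 212, 181, 242 and 286 CPM in WT and 114, 135 and 212 CPM in LC3b-/-. The groups overlapped, since LC3b-/- M lay within the WT range (log2 fold change -0.58 ± 0.25, adjusted p = 0.210 in edgeR). Slco1a5, a closely related carrier, had 15.6, 14.5, 13.9 and 19.3 CPM in WT and 10.2, 9.48 and 13.3 CPM in LC3b-/-. Its groups did not overlap (log2 fold change -0.53 ± 0.19, unadjusted p = 0.023, adjusted p = 0.155 in edgeR, exact permutation p = 0.0286). Slco1a4 and Slco1a5 share stretches at least 95% identical, so reads could be split between them. With their counts and those of their other copies summed, the log2 fold change was -0.58 with an adjusted p of 0.205 in edgeR. Slco1a4 makes up most of that sum, so the sum says little about Slco1a5 alone. Slco1a8 was at 0.702, 0.0829, 0 and 0 CPM in WT and at 1.05, 1.10 and 0.443 in LC3b-/-, with overlapping groups. Slco1a6 and Slco1a7 stayed below the filter, with at most 12 counts in a library, and Slco1a1 had no count.

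The 2 abundant carriers changed places in rank between the groups. Per kb of exon, Slco1c1 was the leading Slco gene in all 4 WT libraries and Slco1a4 in all 3 LC3b-/- libraries. The ratio of Slco1c1 to Slco1a4 per kb was 1.46, 1.61, 2.37 and 1.503 in WT and 0.649, 0.534 and 0.761 in LC3b-/-, with no overlap. The share of Slco1c1 in the summed Slco level per kb was 46.7% to 62.6% in WT and 21.0% to 31.9% in LC3b-/-. The summed CPM of all 16 Slco genes was 540.0 to 814 in WT and 316 to 463 in LC3b-/-. Around the cluster, 9 other genes within 500 kb were tested, of which 6 were higher and 3 lower, and none was called. At an unadjusted p under 0.05, 2 of them were higher (against 13.5% of all genes) and 0 lower (against 10.6%).

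**Figure D2:**
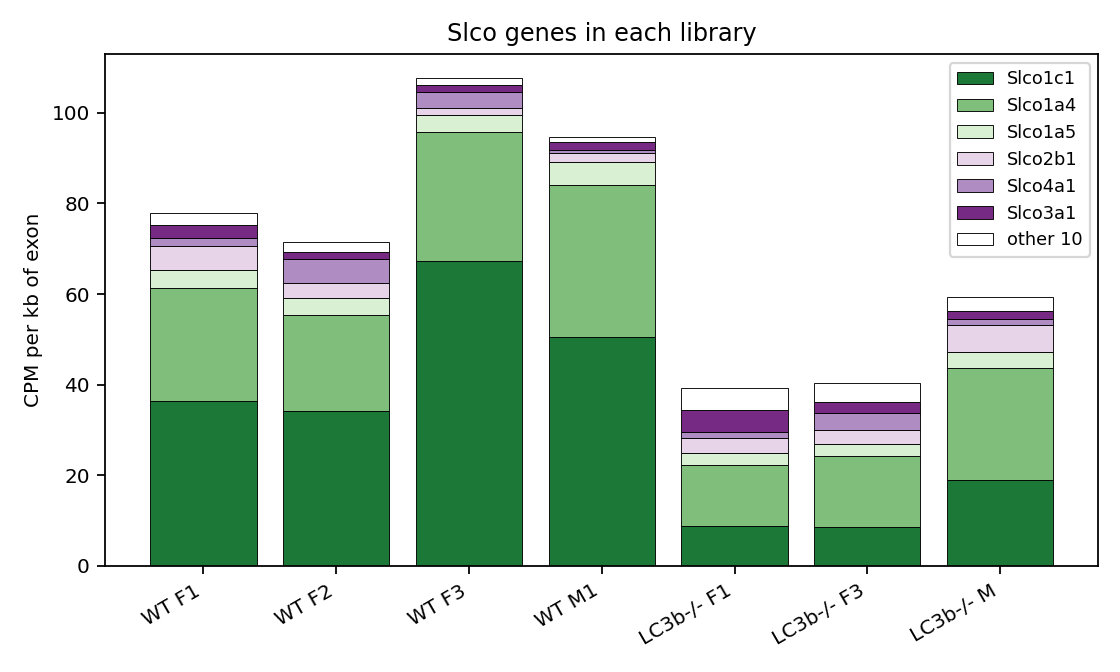
Level of the Slco genes in each library, in CPM per kb of exon, stacked by gene. Slco1c1, the bottom segment, is the tallest segment in the 4 WT libraries, and Slco1a4 is the tallest in the 3 LC3b-/- libraries, whose columns are also shorter.

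The 250 bases before the canonical start of Slco1b2, Slco1c1, Slc22a8 and Slco2a1, the 4 genes that DESeq2 called among the 35, are given because they differ in opposite directions (Slco2a1 higher, the others lower). They were read from the GRCm39 genome. The windows were searched on both strands for TAATCC (core of OTX factors), CACGTG (E-box) and AGGTCA (nuclear receptor half-site), with matches in capitals. For Slco1c1 the last 65 bases are left out because another transcript of the gene already begins there.
Slco1b2, chr6:141574929-141575178, + strand: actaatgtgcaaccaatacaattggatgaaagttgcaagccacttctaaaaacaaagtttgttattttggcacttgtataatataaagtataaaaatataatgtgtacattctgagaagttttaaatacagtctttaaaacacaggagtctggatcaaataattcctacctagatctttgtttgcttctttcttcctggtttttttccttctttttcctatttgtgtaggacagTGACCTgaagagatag
Slco1c1, chr6:141469520-141469704, + strand: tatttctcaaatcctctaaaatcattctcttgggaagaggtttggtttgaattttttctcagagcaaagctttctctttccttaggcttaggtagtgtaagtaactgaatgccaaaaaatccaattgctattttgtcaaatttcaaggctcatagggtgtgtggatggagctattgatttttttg
Slc22a8, chr19:8568226-8568475, + strand: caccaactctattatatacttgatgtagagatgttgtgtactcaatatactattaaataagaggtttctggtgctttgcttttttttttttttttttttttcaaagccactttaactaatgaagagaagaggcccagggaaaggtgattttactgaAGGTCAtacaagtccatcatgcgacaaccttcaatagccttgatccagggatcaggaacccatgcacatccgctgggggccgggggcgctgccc
Slco2a1, chr9:102884951-102885200, + strand: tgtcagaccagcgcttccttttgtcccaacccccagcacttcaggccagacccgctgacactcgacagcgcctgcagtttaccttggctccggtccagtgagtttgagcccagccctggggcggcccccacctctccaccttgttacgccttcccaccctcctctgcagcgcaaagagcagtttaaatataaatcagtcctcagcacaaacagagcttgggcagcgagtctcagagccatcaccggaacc
AGGTCA or its complement stood 16 bases before the start of Slco1b2, 18 bases before that of Slco1c1 (in the part left out) and 94 bases before that of Slc22a8. The Slco2a1 window held no match to any of the 3 motifs. AGGTCA occurred in 11.76% of the same windows of 14928 tested protein-coding genes and in 6 of the 35 tested transporters. TAATCC occurred in 1 of the 35 (6.44% of all windows) and CACGTG in 2 (7.27%). The Slco1b2 window had 31.6% G and C, the Slco1c1 window 38.4%, the Slc22a8 window 42.0% and the Slco2a1 window 58.8%, against a median of 56.4% over all windows. The end of the Slco1b2 window also overlaps an exon of a long non-coding RNA on the other strand, and part of the Slco2a1 window lies in an exon of a transcript of that gene with no coding sequence.

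Outside the Slco1 cluster the Slco genes differed less or in the other direction. Slco2a1, the prostaglandin transporter (ENSMUSG00000032548, chromosome 9, 102865911 to 102973201, + strand), had 23.3, 21.5, 12.4 and 8.84 CPM in the WT mice F1 to F3 and M1, against 47.2, 37.4 and 35 CPM in LC3b-/- F1, F3 and M. Every LC3b-/- library lay above every WT library. The log2 fold change was 1.27 ± 0.34 (SE) with an unadjusted p of 0.0060 and an adjusted p of 0.103 in edgeR, so the gene did not pass the test, while the adjusted p of DESeq2 was 0.0074. The exact permutation p was 0.0571. Within 500 kb of Slco2a1, 12 other genes were tested, 3 higher and 9 lower, and none was called. At an unadjusted p under 0.05 in edgeR, 1 of these neighbours was higher (against 13.5% of all genes) and 5 lower (against 10.6%). Slco5a1 was low, at 0.0878 to 0.373 CPM in WT and 0.413 to 0.552 in LC3b-/-, without overlap and with an adjusted p of 0.325. The other 4 tested genes had overlapping groups. Slco2b1, a carrier of steroid sulphates, had 10.1 to 32.5 CPM in WT and 19.2 to 36.6 in LC3b-/-, and Slco3a1 had 14.2 to 28.1 and 15.6 to 46.7 CPM. Slco4a1, which takes up thyroid hormone, had 4.92 to 31.2 CPM in WT and 8.94 to 23.3 in LC3b-/-. Slco4c1, known from the kidney, was at 0 to 1.84 CPM in WT and 1.36 to 4.31 in LC3b-/-. Slco6c1 and Slco6d1 had no count.

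**Figure D3:**
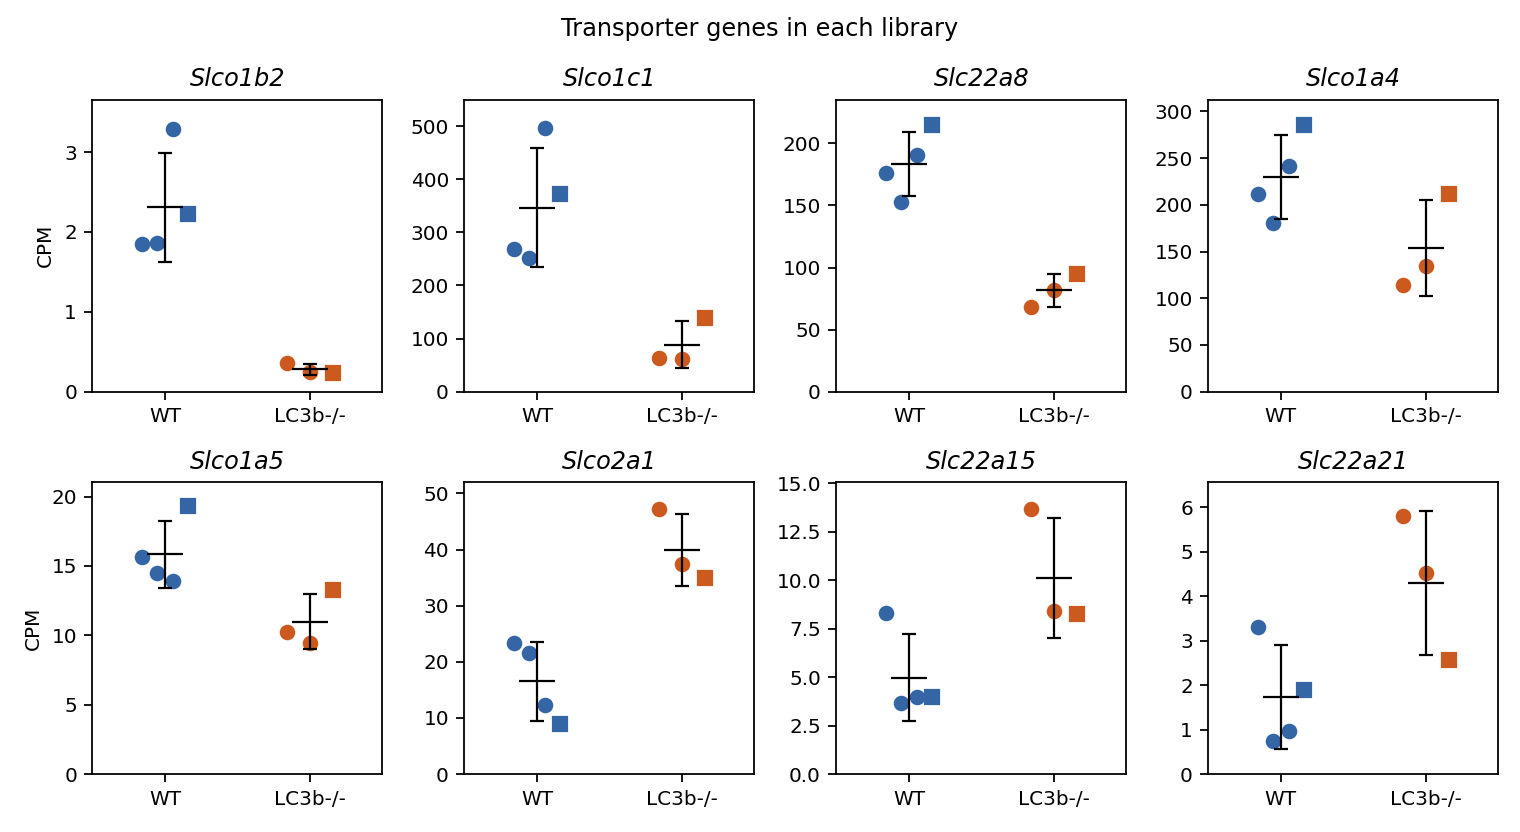
Level in CPM of 8 transporter genes in each library, with circles for females, squares for males, and the mean ± SD of the 4 WT and 3 LC3b-/- libraries. The LC3b-/- points lie wholly below WT for Slco1b2, Slco1c1, Slc22a8 and Slco1a5 and wholly above for Slco2a1, while the groups overlap for Slco1a4, Slc22a15 and Slc22a21.

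In the Slc22a family, 10 of 26 genes were tested. Of the 13 carriers of organic anions only Slc22a8 and Slc22a6 passed the filter. Slc22a8, the exchanger that takes up anionic drugs and metabolites at the basolateral kidney membrane (ENSMUSG00000063796, chromosome 19, 8568476 to 8589541, + strand), had 176, 153, 190 and 215 CPM in the WT mice F1 to F3 and M1, against 68.1, 81.7 and 94.7 CPM in LC3b-/- F1, F3 and M. The groups were well apart and each was tight. The level was 2.25-fold lower in LC3b-/- (log2 fold change -1.17 ± 0.17, adjusted p = 0.054 in edgeR, exact permutation p = 0.0286), just short of the threshold. It crossed it with edgeR without LC3b-/- M (-1.30, adjusted p = 0.032) and without WT F1 (-1.19, adjusted p = 0.048), but with another library left out the adjusted p was higher, at 0.113 (WT F2), 0.135 (WT M1), 0.148 (WT F3), 0.170 (LC3b-/- F1) and 0.204 (LC3b-/- F3). The gene had an adjusted p of 6.01e-07 in DESeq2. Within 500 kb of Slc22a8, 32 other genes were tested, 14 higher and 18 lower, and none was called. At an unadjusted p under 0.05, 3 of these neighbours were higher (against 13.5% of all genes) and 4 lower (against 10.6%). Slc22a6, its close relative that shares the same kidney membrane, was barely detected, at 0.300 to 0.556 CPM in WT and 0 to 0.226 in LC3b-/-. Its groups did not overlap (log2 fold change -2.01 ± 0.89, adjusted p = 0.219 in edgeR), at so few counts that the size of the difference is poorly known.

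Of the carnitine and zwitterion carriers, 4 of 5 were tested. Slc22a15, Slc22a21 and Slc22a4 had higher mean levels in LC3b-/- without passing the test. Slc22a5, the most abundant of the 4, was nearly level (log2 fold change 0.02 ± 0.13, SE). Slc22a15, a carrier of zwitterions, had 8.31, 3.65, 3.97 and 3.96 CPM in the WT mice F1 to F3 and M1, against 13.7, 8.43 and 8.24 CPM in LC3b-/- F1, F3 and M. WT F1 lay within the LC3b-/- range and far from the other WT libraries (log2 fold change 1.02 ± 0.36, unadjusted p = 0.023, adjusted p = 0.155 in edgeR). Slc22a21, a mouse carnitine carrier, had 3.31, 0.746, 0.974 and 1.88 CPM in WT and 5.80, 4.51 and 2.57 CPM in LC3b-/-, again with WT F1 inside the LC3b-/- range (log2 fold change 1.31 ± 0.55, unadjusted p = 0.048, adjusted p = 0.205 in edgeR). Slc22a21 and Slc22a5, the main carnitine carrier of most tissues, are 96.4% identical over 891 bases. Slc22a5 itself had 35.5 to 43.0 CPM in WT and 36.5 to 46.7 in LC3b-/-. With both genes summed the log2 fold change was 0.11 with an adjusted p of 0.658 in edgeR. Slc22a5 makes up most of that sum, so the sum cannot show whether reads were split between the genes. Slc22a4, which takes up ergothioneine, had 0.524 to 5.03 CPM in WT and 2.45 to 3.81 in LC3b-/-.

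Of the organic cation carriers Slc22a2 had 1.35 to 2.21 CPM in WT and 0.926 to 3.37 in LC3b-/-, and Slc22a3 had no count. Slc22a17, a receptor for lipocalin, had 217, 169.6, 221 and 238 CPM in WT and 169, 179 and 191 CPM in LC3b-/-, with overlapping groups (log2 fold change -0.23 ± 0.15, adjusted p = 0.357 in edgeR). Slc22a18, an imprinted gene with no settled substrate, had 24.8 to 42.9 CPM in WT and 26.2 to 46.3 in LC3b-/-. The highest value of each group was the male for Slc22a18 and for Slc22a17. The same libraries had the highest RPE marker sum of their group (WT M1 47580 CPM, LC3b-/- M 28274 CPM). With 1 male in each group, sex cannot be told apart from the single mouse. Slc22a23 had 4.79 to 11.7 CPM in WT and 7.92 to 15.7 in LC3b-/-. The genes Slc22a7, Slc22a12, Slc22a13, Slc22a13b, Slc22a14 and Slc22a26 to Slc22a30 fell below the filter with at most 15 counts in a library. Slc22a16, Slc22a19, Slc22a20 and Slc22a22 had no count, and 3 counts, the limit that a count of 0 allows, correspond to 0.0751 to 0.124 CPM in these libraries.

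Both proton-coupled exporters of the Slc47a family were weakly expressed. Slc47a1 had 1.81, 0.912, 1.20 and 0.384 CPM in WT and 1.37, 0.502 and 1.00 CPM in LC3b-/-. Slc47a2 had 0.439, 1.49, 0.0374 and 0 CPM in WT and 0.644, 0.577 and 0.325 CPM in LC3b-/-. The groups overlapped for both, with log2 fold changes of -0.18 ± 0.59 and 0.07 ± 1.25 (SE).

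None of the 9 tested Abcc genes had an unadjusted p under 0.05. Abcc4, which exports cyclic nucleotides, prostaglandins and urate, had 111, 86.3, 129 and 105 CPM in WT and 93.7, 71.7 and 92.5 CPM in LC3b-/- (log2 fold change -0.32 ± 0.17, adjusted p = 0.280 in edgeR). Abcc1, the exporter of glutathione conjugates, had 101, 88.1, 119 and 150.0 CPM in WT and 81.2, 102 and 123 CPM in LC3b-/- (-0.16 ± 0.22, adjusted p = 0.679 in edgeR). Abcc5, an exporter of cyclic nucleotides, had 55.0, 40.7, 50.8 and 45.8 CPM in WT and 33.7, 52.5 and 51.3 CPM in LC3b-/- (-0.07 ± 0.19, adjusted p = 0.850 in edgeR). For these 3 genes the groups overlapped. Abcc10 alone had LC3b-/- values below all WT values, at 11.2 to 15.1 against 15.2 to 16.4 CPM (exact permutation p = 0.0286, adjusted p = 0.362 in edgeR). Abcc3 had 1.09 to 2.90 CPM in WT and 1.89 to 4.28 in LC3b-/-, Abcc6 had 0.423 to 1.52 and 0.325 to 1.40, and Abcc12 had 0.176 to 0.580 and 0.0752 to 0.242. Abcc2, the canalicular exporter of bilirubin conjugates, fell below the filter with 39, 5, 15 and 8 counts in WT and 1, 0 and 4 in LC3b-/-. The sulfonylurea receptors, which are subunits of potassium channels rather than exporters, had overlapping groups. Abcc9 ranged from 8.13 to 52.3 CPM in WT and from 13.2 to 58.6 in LC3b-/-, a spread within each group wider than the difference between them, and Abcc8 from 0 to 0.412 and from 0.354 to 1.28.

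The P-glycoprotein genes had higher mean levels in LC3b-/- without passing the test. Abcb1a, the drug efflux pump of the blood-brain barrier endothelium (ENSMUSG00000040584, chromosome 5, 8710022 to 8798575, + strand), had 83.6, 61.1, 33.2 and 20.9 CPM in WT and 79.9, 86.3 and 56.8 CPM in LC3b-/- (log2 fold change 0.58 ± 0.44, adjusted p = 0.447 in edgeR). The groups overlapped, and WT F3 and M1 were the low libraries. Abcb1b had 10.1, 4.68, 7.11 and 5.57 CPM in WT and 11.7, 8.78 and 9.19 CPM in LC3b-/- (0.52 ± 0.29, adjusted p = 0.305 in edgeR). The 2 genes are 95.3% identical over 787 bases, and both share shorter stretches with Abcb4, a gene outside the set. With the counts of Abcb1a, Abcb1b and Abcb4 summed, the log2 fold change was 0.53 with an adjusted p of 0.428 in edgeR. Abcb10, a mitochondrial transporter linked to haem synthesis that lies 2.35 Mb from Map1lc3b on chromosome 8, had 12.3, 12.9, 10.2 and 7.30 CPM in WT and 17.3, 12.9 and 11.7 CPM in LC3b-/-, with overlapping groups (0.38 ± 0.24, adjusted p = 0.362 in edgeR). Abcb11, the bile salt export pump, fell below the filter with at most 14 counts in a library.

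The lower transporters and the RPE markers moved in the same direction, so the members were also set against the markers in each library, a comparison chosen after seeing the data. Per 1000 CPM of summed RPE markers, Slco1c1 had 8.72, 8.32, 13.2 and 7.80 CPM in WT and 4.81, 3.91 and 4.92 CPM in LC3b-/-, so its groups still did not overlap. Slco1b2 had 0.0600, 0.0617, 0.0876 and 0.0469 CPM on that scale in WT and 0.0272, 0.0157 and 0.00836 CPM in LC3b-/-, again without overlap. Slc22a8 had 5.73, 5.06, 5.06 and 4.51 CPM in WT and 5.11, 5.13 and 3.35 CPM in LC3b-/-, where 2 of the 3 LC3b-/- libraries lay within the WT range. The difference of mean log2 ratios was -1.04 for Slco1c1, -2.03 for Slco1b2 and -0.19 for Slc22a8. With the mean log2 level of the 10 markers in place of their sum, which is dominated by the most abundant markers, the differences were -1.25, -1.85 and -0.40 and none of the 3 genes overlapped. Slco1a4 was higher relative to the RPE markers, with 6.89, 5.98, 6.42 and 6.005 CPM per 1000 in WT and 8.57, 8.47 and 7.48 in LC3b-/-, and Slco1a5 overlapped at 0.370 to 0.509 against 0.469 to 0.767. Of these 4 Slco1 genes, Slco1c1 and Slco1b2 lay below WT both in CPM and relative to the RPE markers. Slco1a4 and Slco1a5 had lower mean CPM but higher means relative to these markers. The 10 markers themselves ranged in log2 fold change from -1.58 (Lrat) to 0.19 (Best1). The share of all genes without overlap on this scale was not computed.

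The higher transporters were set against the endothelial markers in the same way. Per 1000 CPM of summed endothelial markers, Slco2a1 had 25.7, 26.2, 33.1 and 32.9 CPM in WT and 43.4, 32.1 and 32.3 CPM in LC3b-/-, and its groups overlapped (difference of mean log2 ratios 0.28). Slc22a15 overlapped at 4.44 to 14.7 CPM in WT and 7.22 to 12.6 in LC3b-/-, and Slc22a21 at 0.908 to 7.01 and 2.37 to 5.33. Abcb1a had 92.3, 74.4, 88.9 and 77.7 CPM in WT and 73.5, 73.9 and 52.4 CPM in LC3b-/- on this scale. Every LC3b-/- library lay below WT, but LC3b-/- F1 and F3 only narrowly below WT F2. Its mean CPM was higher in LC3b-/-. The part of endothelial and ocular surface RNA in these levels was not tested further.

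**Figure D4:**
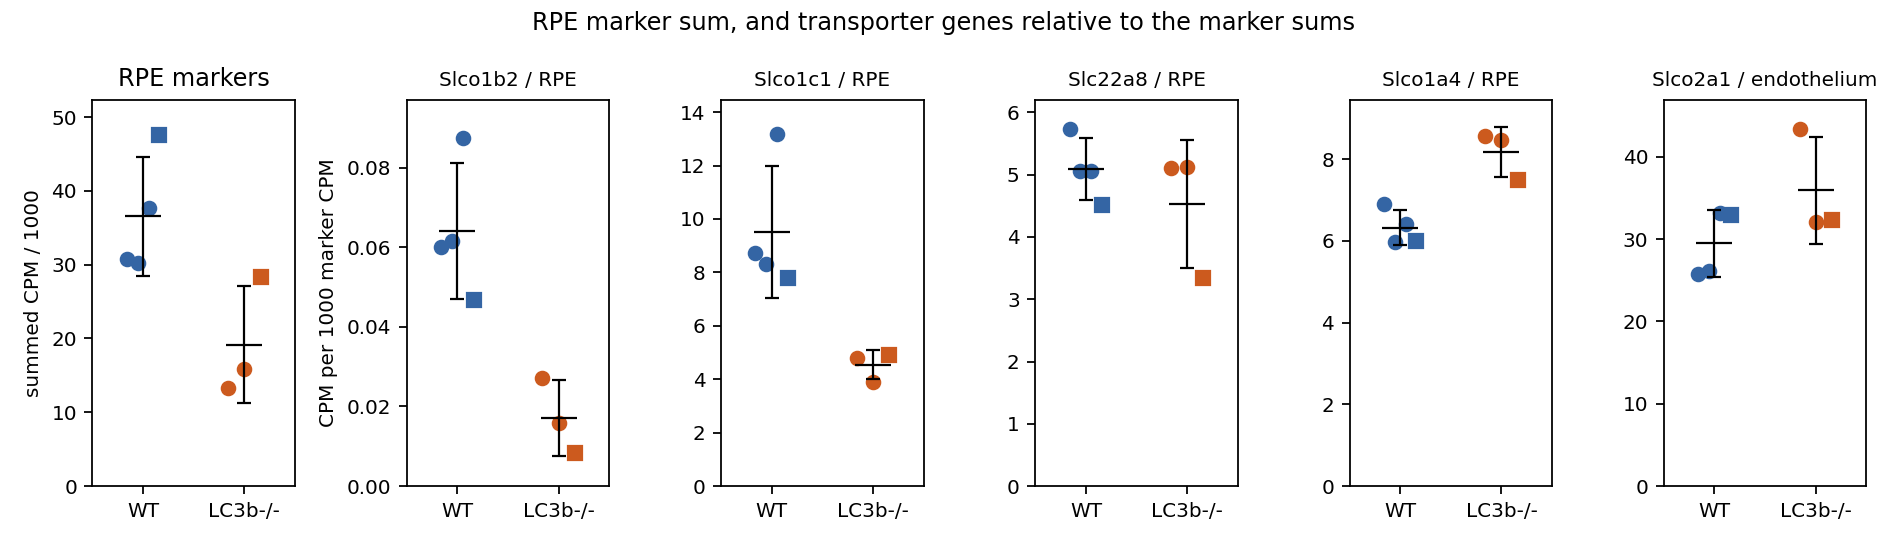
Summed CPM of the 10 RPE markers (left, in units of 1000 CPM) and the level of transporter genes per 1000 CPM of RPE markers or, at the right, of endothelial markers, in each library, with circles for females, squares for males, and the mean ± SD. Slco1b2 and Slco1c1 remain below WT in all 3 LC3b-/- libraries, Slc22a8 and Slco2a1 overlap with WT, and Slco1a4 lies above WT.

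Genes that supply, control or work with these carriers were read from 8 lists with 114 genes, of which 86 were tested. Of these 86, 1 was called, against 0.235% of all genes tested. At an unadjusted p under 0.05, 16 were higher (18.6%, against 13.5% of all genes) and 13 lower (15.1%, against 10.6%). The called gene was Ggt1, the surface enzyme that cleaves glutathione and its conjugates, with 39.0, 31.7, 31.5 and 29.8 CPM in WT and 15.5, 12.4 and 14.9 CPM in LC3b-/-. Ggt1 fell by 1.21 on the log2 scale (SE 0.15, adjusted p = 0.036 in edgeR), and no LC3b-/- library reached the WT range. Neither Ggt1 nor the other genes of these lists were set against the RPE markers. Those markers ranged in log2 fold change from -1.58 (Lrat) to 0.19 (Best1), so a part of the RPE share in the Ggt1 difference was not tested. The call was lost in edgeR with WT M1 left out (adjusted p = 0.079), WT F3 (0.094), LC3b-/- F1 (0.101), WT F2 (0.123) or LC3b-/- F3 (0.167), and with females only (0.068), at log2 fold changes between -1.29 and -1.14. In the conjugation list, 30 of 44 genes were tested, with 7 higher (23.3%, against 13.5% of all genes) and 5 lower (16.7%, against 10.6%) at an unadjusted p under 0.05. Mgst2, a microsomal glutathione transferase, had 0.150 to 0.290 CPM in WT and 0.827 to 1.73 in LC3b-/- (log2 fold change 2.54, adjusted p = 0.084 in edgeR). Gsto1, a cytosolic one, had 6.37 to 244.7 CPM in WT and 679.5 to 6114 in LC3b-/- (4.31, adjusted p = 0.106 in edgeR), highest in LC3b-/- F1, the library with the highest ocular surface sum. The part of that sum in the Gsto1 level was not tested.

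Among the 8 tested of 11 regulators of drug transporters, 2 were higher (against 13.5% of all genes) and 1 lower (12.5%, against 10.6%) at an unadjusted p under 0.05, none of them called. Ahr, the aryl hydrocarbon receptor, had 8.13 to 10.5 CPM in WT and 13.6 to 24.7 in LC3b-/- (log2 fold change 1.04, adjusted p = 0.091 in edgeR). Rxra, the common partner of many nuclear receptors, had 48.3 to 62.3 CPM in WT and 65.5 to 92.7 in LC3b-/- (0.41, adjusted p = 0.178 in edgeR). Hnf4a had 23.9 to 45.5 CPM in WT and 7.69 to 25.0 in LC3b-/- with overlap (-0.98, adjusted p = 0.196 in edgeR). The xenobiotic receptors Nr1i2 and Nr1i3 fell below the filter.

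Among scaffolds and partner subunits, 5 of 8 were tested. Nherf1, the scaffold that anchors apical transporters, had 447 to 745 CPM in WT and 257 to 400.2 in LC3b-/-, without overlap (log2 fold change -0.88, adjusted p = 0.114 in edgeR). The RPE marker sum was lower without overlap as well, at 30231 to 47580 CPM in WT and 13330 to 28274 in LC3b-/-. Nherf1 was not set against that sum. Abcg2, an efflux pump for urate and drugs that lies outside the symbol patterns, had 29.6, 23.5, 9.44 and 9.84 CPM in WT and 23.5, 25.6 and 29.0 CPM in LC3b-/-, with overlapping groups (0.53, adjusted p = 0.465 in edgeR).

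All 15 genes of prostaglandin handling were tested, with 2 higher (13.3%, against 13.5% of all genes) and 3 lower (against 10.6%) at an unadjusted p under 0.05 and none called. Ptgr1, which inactivates prostaglandins and leukotrienes, had 6.55 to 20.8 CPM in WT and 21.5 to 105 in LC3b-/- (log2 fold change 2.05, adjusted p = 0.122 in edgeR). Ptgr2, a reductase of the same pathway, had 74.6 to 90.8 CPM in WT and 52.1 to 69.9 in LC3b-/- (-0.52, adjusted p = 0.104 in edgeR), and Ptgis, the prostacyclin synthase, had 50.3 to 75.4 and 26.8 to 47.8 CPM (-0.79, adjusted p = 0.121 in edgeR). These 3 genes did not overlap between the groups, with Ptgr1 above WT and the other 2 below. The libraries stood in the same order for Ptgr1 as for the summed ocular surface markers, with LC3b-/- F1 highest for both. The part of ocular surface RNA in the Ptgr1 level was not tested.

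Of the thyroid hormone genes, 9 of 10 were tested and none was called. Dio2, the deiodinase that makes the active hormone, had 2.27 to 6.79 CPM in WT and 5.28 to 14.3 in LC3b-/- (log2 fold change 1.17, unadjusted p = 0.032, adjusted p = 0.173 in edgeR). The receptor gene Thrb had 30.3 to 41.5 CPM in WT and 22.1 to 31.7 in LC3b-/- (-0.41, adjusted p = 0.183 in edgeR). Both overlapped between the groups.

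Carnitine handling had 8 of 10 genes tested, with 2 lower at an unadjusted p under 0.05 (against 10.6% of all genes). Cpt2, the inner carnitine palmitoyltransferase of mitochondria, had 36.1 to 52.1 CPM in WT and 23.8 to 34.9 in LC3b-/- (log2 fold change -0.62, adjusted p = 0.126 in edgeR), and Aldh9a1, an enzyme of carnitine synthesis, had 98.4 to 147.5 and 66.5 to 107.8 CPM (-0.55, adjusted p = 0.177 in edgeR). Urate and purine handling had 5 of 8 tested, with 3 higher (against 13.5% of all genes). Xdh, which makes urate, had 13.9 to 44.0 CPM in WT and 49.8 to 72.4 in LC3b-/- (1.157, adjusted p = 0.134 in edgeR), Slc2a9, a urate carrier, had 0.786 to 1.79 and 1.77 to 4.83 CPM (1.55, adjusted p = 0.112 in edgeR), and Pnp, a purine salvage enzyme, had 53.1 to 81.9 and 83.3 to 97.3 CPM (0.50, adjusted p = 0.150 in edgeR). Monoamine handling had 7 of 9 tested. Slc18a2, the vesicular monoamine transporter, had 0.687 ± 0.374 CPM in WT (SD, n = 4) and 2.56 ± 1.10 in LC3b-/- (SD, n = 3), without overlap (1.897, adjusted p = 0.113 in edgeR), and no gene of these 3 lists was called.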

How the data were processed

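RNA of RPE from 7 mice was sequenced as single reads from stranded mRNA libraries. The authors quantified the reads with salmon 1.9.0 against GENCODE vM26 (GRCm39) and summed them to genes with tximeta 1.16.1. The deposited values are estimated counts per gene, held as whole numbers and not scaled. Trimming, salmon options and rounding are not given in the sources used here.

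Symbols, positions and exon lengths came from GENCODE vM39 on the same build, which matched 51721 of 52740 identifiers. Counts were tested with edgeR 4.0.16 (filterByExpr, TMM, glmQLFit and glmQLFTest, R 4.3.3) on all 7 libraries without covariates, and p-values were adjusted by Benjamini-Hochberg over 16990 genes. CPM use the TMM-scaled totals. DESeq2 1.42.0 was the alternative. Single values were also compared by the exact two-sided permutation test on log2 CPM (prior count 2). Scripts were tested on simulated data. Named genes were the called ones, those with an unadjusted p under 0.05 and the 3 most abundant per kb in each family, and in companion lists up to 3 with an unadjusted p under 0.05, and Abcg2. Other members are given as ranges or by name. Near-identical copies (at least 95% over 100 bases by BLAST) were kept within the transporter families only, since other matches were shared repeats. The members, lists and tests were chosen with earlier results of these data known. The labels name separate mice; p-values measure the spread between them. The mouse names also hold a number of unstated meaning that differs between the genotypes, so what it marks and the genotype cannot be told apart. Ca4 of the ciliary list matched no symbol. Of the genes with too few counts to test, 2 are not reported here by name.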

Additional observations from a re-analysis of the deposited data

Results flagged for a closer look

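Slc22a15 in the WT library F1 stood apart from the other 3 WT libraries, with 8.31 CPM against 3.65 to 3.97, a gap of 0.931 of the group's range, above the critical value of Dixon's test for 4 samples. Chance alone flags about 1 group in 20. Among the 4 WT libraries, F1 also had the highest level of Slc22a21, 3.31 CPM, and the highest sum of endothelial markers, 906.6 CPM, and the part of these in the Slc22a15 level was not tested. Without WT F1 the log2 fold change of Slc22a15 was 1.39 with an adjusted p of 0.055 in edgeR.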

How the results depend on the processing

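For 18 tested transporter genes named above, 273 values under other settings were compared with those reported. The direction changed in 13, in Abcc5, Slc22a18, Slc47a1 and Slc47a2, none of which was called in any. The count of transporter genes called, 1 as reported, was 5 with DESeq2 (which tests genes below edgeR's filter and adds Abcc2), 2 with DESeq2 size factors in edgeR, 2 with no filter on low counts, 2 with sex as a covariate, and 0 with females only, where Slco1b2 had an adjusted p of 0.085. It ran from 0 to 3 when 1 library was left out. The count at an unadjusted p under 0.05, 7 as reported, was 11 with DESeq2 and 4 to 14 when 1 library was left out. The companion genes called, 1 as reported, were 12 with DESeq2, 3 with sex as a covariate, 0 with females only and 0 to 2 when 1 library was left out. With a replicate block on the mouse names F1 and F3, which left 4 libraries, 0 transporter genes and 0 companion genes were called. The deviations from the group means correlated at 0.146 for F1 and 0.243 for F3, and the numbers belong to different mice, so they were not taken as pairs. In that fit 8 transporters had an unadjusted p under 0.05, and the log2 fold change of Map1lc3b was -3.96 with an adjusted p of 0.062. DESeq2 gave Slc22a8, Slco1c1 and Slco2a1 an adjusted p under the threshold that edgeR did not, and the cause was not tested. Slc22a8 was also called with DESeq2 size factors in edgeR, with no filter and with sex as a covariate, at adjusted p of 0.0499, 0.0347 and 0.0273. A minimum of 10 counts in every library left Slco1b2 untested, and Slc22a8 was then called with an adjusted p of 0.0495. The few counts of Slco1b2, Slc22a6, Slc47a2 and Abcc2 limit how well their sizes are known.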
